A study of Mus musculus with 6 samples.

Results

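A set of 10 genes of muscle protein breakdown was followed in heart muscle cells with and without the transcription factor TFEB. They were taken by name from the deposited table: Trim63, Trim54, Trim55, Fbxo32, Fbxo40, Fbxo30, Klhl38, Foxo1, Foxo3 and Foxo4, 10 of 46450 gene symbols, and all 10 passed the filter of at least 1 CPM in at least 3 libraries that left 12437 genes to test. The libraries came from cardiomyocytes isolated from hearts of C57BL/6 mice aged 3 months, 3 wild type (WT) and 3 TFEB-/-. Whether the deletion is in every cell or driven by a muscle promoter, how many animals each library holds, and the sex of the mice are not given in the sources used here. Where nothing says that libraries came from separate animals, p-values measure only the spread between these libraries. The values are read here as CPM (counts scaled to the library total) because the table is so named, and are whole numbers. The reads behind each value are therefore unknown, and rounding alone allows 0.5 CPM on either side.

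Ubiquitin ligases tag proteins for destruction by the proteasome. In striated muscle the best known are atrogin-1 (Fbxo32), an F-box protein that hands substrates to an SCF ligase, and the RING finger protein MuRF1 (Trim63), whose transcripts mark muscle wasting and which act on sarcomere and metabolic proteins. FoxO transcription factors switch both genes on, and insulin signalling through AKT holds FoxO proteins out of the nucleus, so much of FoxO activity is set by phosphorylation and cannot be read from FoxO transcripts. TFEB has itself been described as a regulator of Trim63 in muscle.

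RefSeq promoters on build GRCm38.p6 were at hand for 6 of the 10 genes, in 7 entries. Fbxo32, Trim55, Klhl38 and Foxo4 had no entry. Each entry of 250 bases before and 50 after the start site was searched on both strands for the FoxO element GTAAACA, for the E-box CACGTG, which TFEB and many other factors can bind, and for GTCACGTG, the stricter form of that E-box found in lysosomal genes, which contains CACGTG. The promoter of Trim63 was the only one of the 7 entries with any of these letters, a FoxO element on the minus strand at positions -194 to -188 from the start site. Other forms of the E-box, such as the CATGTG in the Trim63 stretch below, were not searched for. Of 32851 RefSeq promoters of the same length, 3.65% held the FoxO element, 7.15% the E-box and 2.25% the stricter form. The 250 bases before the start sites of Trim63 (chr4:134314870-134315119, plus strand) and of Trim54 (chr5:31116362-31116611, plus strand) are given because these relatives differed most from each other in the libraries. Capitals mark the FoxO element, and the Trim54 stretch holds none of the 3 motifs.
Trim63: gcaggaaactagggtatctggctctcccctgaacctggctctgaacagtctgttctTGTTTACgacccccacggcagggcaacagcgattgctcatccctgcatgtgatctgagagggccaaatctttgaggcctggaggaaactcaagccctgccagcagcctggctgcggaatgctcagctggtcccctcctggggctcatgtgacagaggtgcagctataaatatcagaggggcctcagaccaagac
Trim54: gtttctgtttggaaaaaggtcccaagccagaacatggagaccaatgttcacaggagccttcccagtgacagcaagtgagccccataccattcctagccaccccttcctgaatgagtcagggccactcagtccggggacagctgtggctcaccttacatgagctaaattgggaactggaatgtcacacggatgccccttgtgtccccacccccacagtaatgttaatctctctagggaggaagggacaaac

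The frame of the whole table bears on every value that follows. Tfeb was at 17, 30 and 23 CPM in WT and at 6, 5 and 7 CPM in TFEB-/- (adjusted p = 0.0267 at a log2 fold change of -1.85 with SE 0.24), a call that was kept without WT replicate 1 and lost without any other single library (adjusted p = 0.0604 to 0.116). Across all tested genes the median log2 fold change was 0.24. Transcripts of the mitochondrial genome took 30.7%, 33.9% and 44.6% of the WT libraries and 22.2%, 30.3% and 25.3% of the TFEB-/- libraries (exact two-sided permutation p = 0.1, the smallest that 3 against 3 allow). Results are therefore also given after median-ratio scaling, which brings the median of all genes to 0.0053. Cardiomyocyte markers such as Myh6 and Tnnt2 summed to 64400 to 89268 CPM in WT and 79121 to 103340 CPM in TFEB-/-, with 0 of 14 past the threshold and 2 at an unadjusted p below 0.05 in limma. Sums over marker lists did not overlap between genotypes for 10 fibroblast genes (245 to 271 and 325 to 414 CPM; Gsn and Pdgfra past the threshold, the latter at 2 CPM in each WT and 3 CPM in each TFEB-/- library), 9 smooth muscle and pericyte genes (368 to 458 and 554 to 565 CPM; Cspg4 past it), 12 macrophage genes (22 to 33 and 45 to 55 CPM; none past it, Ptprc at 0) and 9 genes of skeletal muscle (1 to 2 and 8 to 10 CPM; Tnnt3 past it, Myh1, Myh4, Myod1 and Actn3 at 0). Of 12 endothelial genes (516 to 603 and 458 to 571 CPM), 0 passed. The 9 blood cell genes summed to 5 to 37 and 6 to 10 CPM, with Alas2, S100a8, S100a9 and Cd79a at 0. Of the 3 that could be tested, 0 passed. These sums and calls are on deposited CPM, where 21.2% of all genes were higher without overlap. On that scale 4.44% of all genes passed and 23.3% had an unadjusted p below 0.05 in limma. Relative to all genes, the median log2 fold change was 0.0063 for fibroblast and -0.15 for smooth muscle and pericyte genes. It was 0.37 for macrophage genes and 1.91 for the 2 skeletal muscle genes tested. With median-ratio scaling (5.48% of all genes past) Gsn and Pdgfra no longer passed, while Cspg4 and Tnnt3 did. The endothelial gene Cldn5 then passed as a lower gene. The part of these cells and of the mitochondrial share in the results below was not tested, and in bulk samples fewer cells of a type and less RNA per cell cannot be told apart.

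Transcripts of the muscle ubiquitin ligases and FoxO factors had fold changes from 0.762 (Klhl38, 95% interval 0.490 to 1.18) to 1.55 (Trim54, 1.12 to 2.15) on deposited CPM, and none of the 10 passed the threshold of an adjusted p below 0.05. All 3 TFEB-/- libraries exceeded every WT library for Trim54 and Foxo3, and lay under every WT library for Fbxo32. Across all tested genes 3.92% were called higher and 0.523% lower, 4.44% in all. Before adjustment 2 of the 10, Trim54 and Foxo3, had a limma p below 0.05, against 23.3% of all genes. The groups did not overlap in 3 of 10 genes, against 23.4% of all genes, with 2 higher (21.2% of all genes) and 1 lower (2.28% of all genes). The median log2 fold change of the 10 was -0.016, which is -0.25 relative to all genes, and 8 of the 10 lay below the median of all genes.

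**Figure D1:**
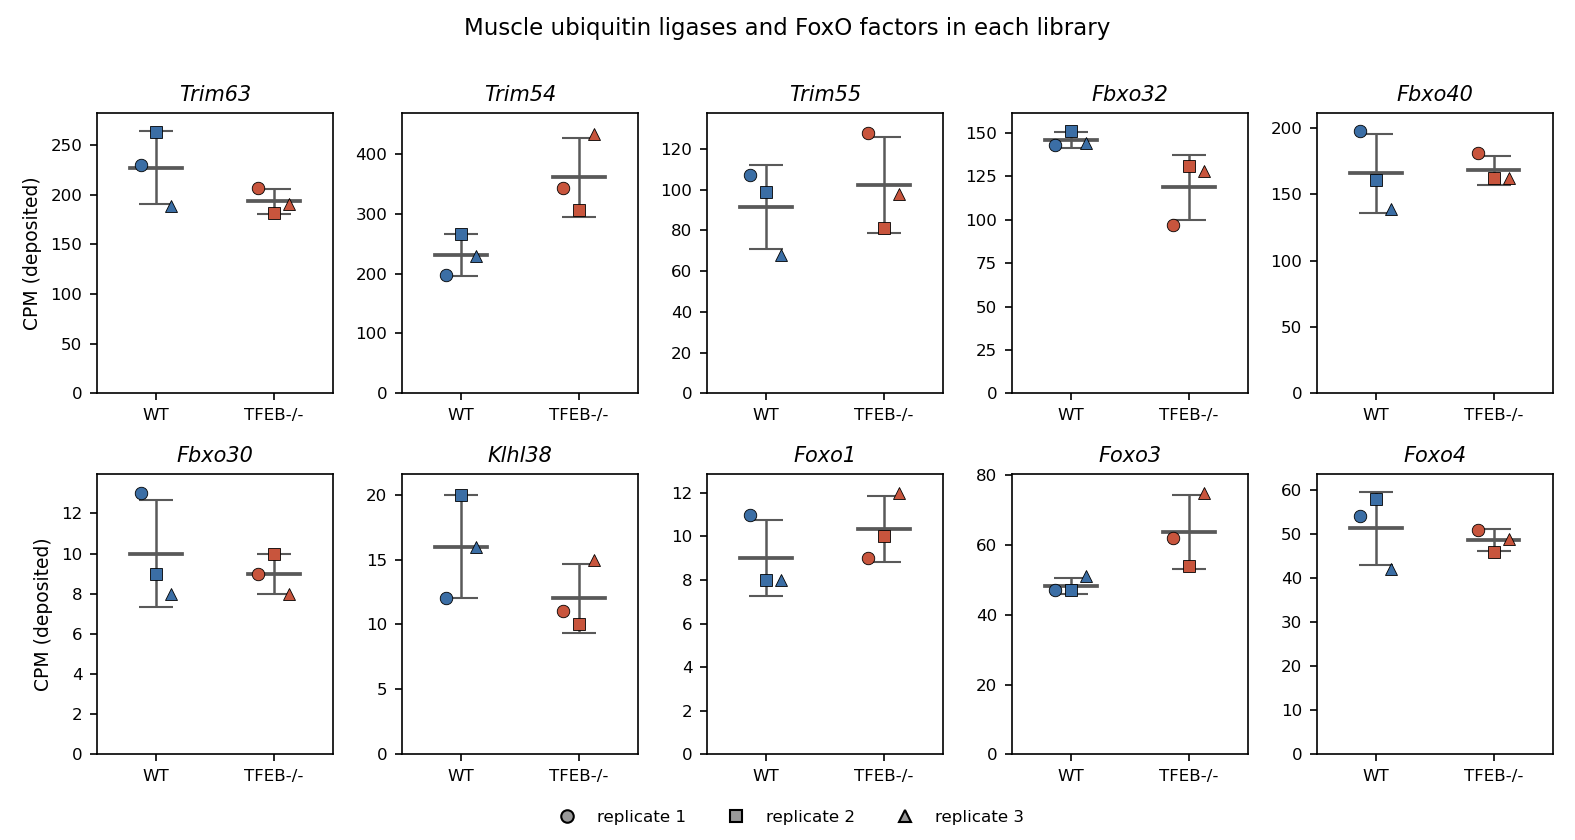
Deposited CPM (vertical axes, from 0) of the 10 genes in each of the 3 WT and 3 TFEB-/- libraries. Symbols are libraries, wide bars are means and whiskers are SD. Trim54 and Foxo3 lie higher and Fbxo32 lower in TFEB-/- with no overlap, and the other 7 genes overlap.

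The MuRF genes encode RING finger proteins of the sarcomere that can pair with one another. Trim63 (ENSMUSG00000028834; GRCm38 chromosome 4, 134315120 to 134329629, plus strand, protein coding), which encodes MuRF1, was at 230, 263 and 189 CPM in WT and at 207, 182 and 191 CPM in TFEB-/-. WT replicate 3 and TFEB-/- replicates 1 and 3 overlapped, while WT replicates 1 and 2 lay above every TFEB-/- library. The means were 227 ± 37.1 and 193 ± 12.7 CPM (SD, n = 3), or -0.22 on the log2 fold change scale (SE 0.14, 95% interval -0.58 to 0.14, adjusted p = 0.378).

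Trim54 (ENSMUSG00000062077; chromosome 5, 31116712 to 31137630, plus strand), which encodes MuRF3, a microtubule-binding member, went the other way. It was at 197, 267 and 230 CPM in WT and at 343, 306 and 434 CPM in TFEB-/-. Every TFEB-/- library lay above every WT library, and TFEB-/- replicate 3 was the highest. The means were 231 ± 35.0 and 361 ± 65.9 CPM, or 0.64 on the log2 fold change scale (SE 0.18, 95% interval 0.17 to 1.10, adjusted p = 0.13), or 1.55-fold with an interval of 1.12 to 2.15. On deposited CPM this was the largest difference among the 10 genes, while with median-ratio scaling Klhl38, Fbxo32 and Trim63 differed by more. The log2 fold change of Trim54 was 0.40 with median-ratio scaling, 0.41 in CPM without mitochondrial genes and 0.43 with quantile normalization. With 1 library left out it ran from 0.50 to 0.75, where groups without overlap cannot change sign. Trim54 passed the threshold in 1 of 18 alternatives, array weights (adjusted p = 0.0476, with 18% of all genes called higher).

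Trim55 (ENSMUSG00000060913; chromosome 3, 19644474 to 19692421, plus strand) encodes MuRF2, which links titin to the cytoskeleton. It was at 107, 99 and 68 CPM in WT and at 128, 81 and 98 CPM in TFEB-/-, and the groups overlapped over most of their range (log2 fold change 0.16, 95% interval -0.49 to 0.82, adjusted p = 0.7). The 3 MuRF genes together came to 534, 629 and 487 CPM in WT and 678, 569 and 723 CPM in TFEB-/-, a difference of 107 CPM within which the groups overlapped (exact two-sided permutation p = 0.2). With median-ratio scaling that difference was 6.36, and in CPM without mitochondrial genes 17.7.

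The balance between MuRF3 and MuRF1 transcripts can be compared between libraries as a ratio within each, where no library scaling enters. These CPM are not divided by transcript length, so a ratio or share does not say which transcript is more abundant. The log2 ratio of Trim54 to Trim63 was -0.22, 0.022 and 0.28 in WT and 0.73, 0.75 and 1.18 in TFEB-/-, so the lowest TFEB-/- library lay well above the highest WT library. The mean difference was 0.86 (exact two-sided permutation p = 0.1, the smallest possible, and 0.3 when adjusted over 5 such quantities). As a share of the 3 MuRF genes, Trim54 took 36.9%, 42.4% and 47.2% of the CPM in WT and 50.6%, 53.8% and 60.0% in TFEB-/-. This ratio was chosen after the values of its genes were seen.

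**Figure D2:**
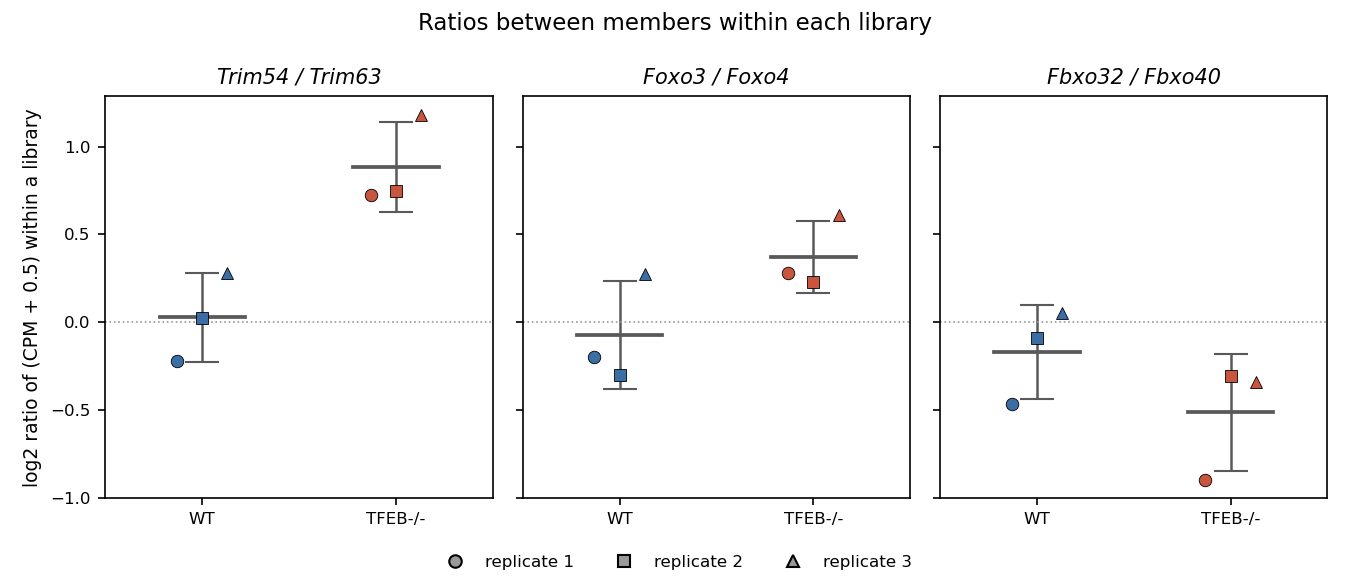
Log2 ratio of (CPM + 0.5) between pairs of genes within each library, by genotype, with means as wide bars, SD as whiskers and a dotted line at a ratio of 1. CPM are not divided by transcript length. Trim54 to Trim63 separates the genotypes, from at most 0.28 in WT to at least 0.73 in TFEB-/-, while the other 2 ratios overlap.

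Atrogin-1 transcript had lower and more spread values in the knockout, short of the threshold. Fbxo32 (ENSMUSG00000022358; chromosome 15, 58175879 to 58214932, minus strand) was at 143, 151 and 144 CPM in WT and at 97, 131 and 128 CPM in TFEB-/-. The WT libraries lay within 8 CPM of one another and above all TFEB-/- libraries, of which replicate 1 was lowest. The means were 146 ± 4.36 and 119 ± 18.8 CPM, or -0.31 on the log2 fold change scale (SE 0.13, 95% interval -0.65 to 0.034, adjusted p = 0.243). Without TFEB-/- replicate 1 the log2 fold change was -0.17, where groups without overlap cannot change sign. None of the 18 alternatives brought Fbxo32 past the threshold (adjusted p = 0.0991 to 0.424).

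Fbxo40 (ENSMUSG00000047746; chromosome 16, 36963460 to 36990467, minus strand), a muscle F-box protein described to act on the insulin receptor substrate Irs1, was at 198, 161 and 139 CPM in WT and at 181, 162 and 162 CPM in TFEB-/-. The TFEB-/- values all lay inside the WT range (log2 fold change 0.033, 95% interval -0.35 to 0.41, adjusted p = 0.934). The log2 ratio of Fbxo32 to Fbxo40 was -0.47, -0.092 and 0.051 in WT and -0.90, -0.31 and -0.34 in TFEB-/- (exact two-sided permutation p = 0.3). WT replicate 1 fell among the TFEB-/- libraries.

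Fbxo30 (ENSMUSG00000047648; chromosome 10, 11281330 to 11298052, plus strand), known as MUSA1 and described in muscle wasting that BMP signalling restrains, was among the low genes of the set. It was at 13, 9 and 8 CPM in WT and at 9, 10 and 8 CPM in TFEB-/- (log2 fold change -0.12, 95% interval -0.65 to 0.41, adjusted p = 0.728). Klhl38 (ENSMUSG00000022357; chromosome 15, 58314573 to 58324169, minus strand), a Kelch-like protein of the family that brings substrates to cullin-3, was at 12, 20 and 16 CPM in WT and at 11, 10 and 15 CPM in TFEB-/- (log2 fold change -0.39, 95% interval -1.03 to 0.24, adjusted p = 0.377). It is the next gene to Fbxo32 on the same strand in GENCODE M21, with 99640 bases and no other gene lying wholly between them. The antisense gene Gm15943 on the opposite strand overlaps both and was listed at 0. Klhl38 and Fbxo32 both had negative log2 fold changes. WT replicate 1, the lowest WT library for Klhl38, was also the lowest for Fbxo32, and TFEB-/- replicate 2, the lowest for Klhl38, was the highest of its group for Fbxo32.

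Among the FoxO factors, Foxo3 was the one whose groups did not overlap. Foxo3 (ENSMUSG00000048756; chromosome 10, 42181841 to 42276755, minus strand), the member best known for driving atrogin-1 and autophagy genes in muscle, was at 47, 47 and 51 CPM in WT and at 62, 54 and 75 CPM in TFEB-/-. The WT libraries were close together and the TFEB-/- libraries were higher and more spread, with means of 48.3 ± 2.31 and 63.7 ± 10.6 CPM (adjusted p = 0.184 at a log2 fold change of 0.38 with SE 0.13 and 95% interval 0.035 to 0.73). Relative to all genes the difference was 0.15, and with median-ratio scaling the groups overlapped (log2 fold change 0.14, adjusted p = 0.652).

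Foxo4 (ENSMUSG00000042903; chromosome X, 101254528 to 101260873, plus strand) was at 54, 58 and 42 CPM in WT and at 51, 46 and 49 CPM in TFEB-/-, with the TFEB-/- libraries inside the WT range (log2 fold change -0.064, 95% interval -0.42 to 0.29, adjusted p = 0.799). Foxo1 (ENSMUSG00000044167; chromosome 3, 52268336 to 52353221, plus strand), the member most tied to insulin action, was at 11, 8 and 8 CPM in WT and at 9, 10 and 12 CPM in TFEB-/- (log2 fold change 0.20, 95% interval -0.25 to 0.65, adjusted p = 0.515). The 3 FoxO genes summed to 112, 113 and 101 CPM in WT and 122, 110 and 136 CPM in TFEB-/-. These sums overlapped (exact two-sided permutation p = 0.3), and their difference of 14.0 CPM turned to -5.10 with median-ratio scaling. The log2 ratio of Foxo3 to Foxo4 was -0.20, -0.30 and 0.28 in WT and 0.28, 0.23 and 0.61 in TFEB-/- (exact two-sided permutation p = 0.2), with WT replicate 3 among the TFEB-/- libraries.

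How the ligases compare with wild type depended on the scale. Median-ratio scaling divides each library by 1 factor, which lowers the log2 fold changes of members and other genes alike. The median of all genes went from 0.24 to 0.0053. The 4 members whose values were then lower in every TFEB-/- library were Trim63, Fbxo32, Fbxo40 and Foxo4, against 11.8% of all genes lower without overlap. Trim54 alone was higher, against 14.3%. In either direction 5 of 10 did not overlap, against 26.1% (also 5 of 10 in CPM without mitochondrial genes, against 30.7%). Trim63 then stood at 226, 281 and 231 in WT and 175, 179 and 179.6 in TFEB-/- in scaled CPM, or -0.46 on the log2 fold change scale (SE 0.11, 95% interval -0.72 to -0.21, adjusted p = 0.0567). It passed the threshold as a lower gene with quantile normalization (adjusted p = 0.0319, with 1.38% of all genes lower) and in CPM without mitochondrial genes (adjusted p = 0.0441, with 1.51% lower), 2 of its 18 alternatives. On the deposited scale its lowest WT value, 189 CPM, belonged to replicate 3, the library with the largest mitochondrial share, in which Trim55, Fbxo40, Fbxo30 and Foxo4 were also lowest of the WT group and Foxo1 tied for lowest, while Foxo3 was highest there and Trim54, Fbxo32 and Klhl38 lay between the other WT libraries. Fbxo32 had a log2 fold change of -0.55 (95% interval -0.98 to -0.12, adjusted p = 0.137) with median-ratio scaling, Klhl38 one of -0.62 (adjusted p = 0.2), Foxo4 one of -0.30 (adjusted p = 0.143) and Trim54 one of 0.40 (adjusted p = 0.283). None of the 10 passed with median-ratio scaling in limma (3.87% of all genes higher, 1.61% lower, 5.48% in all), where 4 had an unadjusted p below 0.05, against 22.3% of all genes. Trim55, Fbxo40 and Foxo1 changed sign between the scales.

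**Figure D3:**
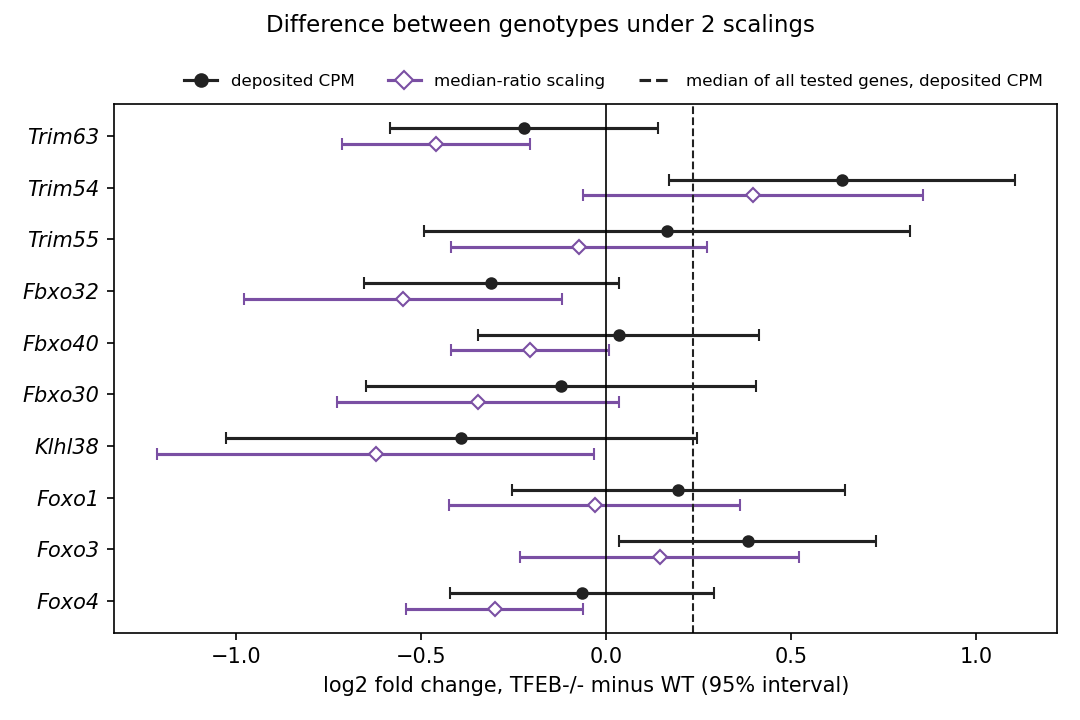
Log2 fold change, TFEB-/- minus WT, with 95% intervals from limma (horizontal axis) for each of the 10 genes, on deposited CPM (filled circles) and with median-ratio scaling (open diamonds). The dashed line is the median of all tested genes on deposited CPM, 0.24. Trim54 lies to the right of that line on both scales, and Trim63, Fbxo32, Fbxo30, Klhl38 and Foxo4 lie left of 0 on both.

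Levels of different genes can be set side by side only per length, here as CPM per kb of the longest coding transcript in GENCODE M21. In WT the order was Trim54 (161 CPM per kb, libraries from 137 to 186), Trim63 (121, from 100.2 to 139), Trim55 (35.2), Fbxo40 (32.3), Fbxo32 (20.9, from 20.5 to 21.6), Foxo4 (16.2, from 13.3 to 18.3), Klhl38 (7.23), Foxo3 (7.06), Fbxo30 (1.98) and Foxo1 (1.04). The libraries overlapped between the neighbours Trim54 and Trim63, Trim55 and Fbxo40, and Klhl38 and Foxo3. Within each library Trim54 was nonetheless above Trim63 in all 3 WT libraries, while the order of the other pairs varied between libraries. In TFEB-/- Trim54 (252, from 213 to 303 CPM per kb) and Trim63 (103, from 96.5 to 109.8) no longer overlapped, and Foxo3 (9.30) stood above Klhl38 (5.42) in all 3 libraries. Which transcripts the cells use is not known, and a shorter main isoform would raise a gene in this order. Shared sequence leaves little room for reads of one member to count for another: of all 31-base words in a gene's transcripts, 0% to 1.76% also occur in other genes, the MuRF genes share none with each other, and the only overlap among the 10 is 8 words between Foxo1 and Foxo3. The annotated genes that overlap 5 of the 10 were listed at 0 in all libraries.

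The lists of other genes of the pathway are to be read against all tested genes, of which 4.44% were called, 23.3% had an unadjusted p below 0.05 in limma, and the median log2 fold change was 0.24. Of 29 other muscle ligases and adaptors, 1 was higher and 1 lower, and their median log2 fold change of 0.24 equalled that of all genes. Asb14, an ankyrin repeat and SOCS box protein that serves as a substrate receptor of cullin-5 ligases, fell from 71, 67 and 56 CPM in WT to 20, 23 and 19 CPM in TFEB-/- (adjusted p = 0.00398 at a log2 fold change of -1.62 with SE 0.12). The WT values were at least 56 CPM and the TFEB-/- values at most 23 CPM, and the call held in all 18 alternatives (adjusted p = 0.000581 to 0.0397). Klhl40, a Kelch protein of the sarcomeric thin filament whose loss causes nemaline myopathy, rose from 22, 20 and 15 to 53, 37 and 51 CPM (adjusted p = 0.047 at a log2 fold change of 1.28 with SE 0.21). The call of Klhl40 was kept with median-ratio scaling (adjusted p = 0.0115) and lost when any 1 library was left out (adjusted p = 0.0539 to 0.18).

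Of 13 tested core subunits and partners of SCF and cullin ligases, 1 was higher and 0 lower, with a median of 0.15. The called gene was the adaptor Obsl1, not a core subunit. Obsl1, the cytoskeletal adaptor that works with cullin-7, rose from 90, 83 and 80 to 210, 136 and 181 CPM (adjusted p = 0.0497 at a log2 fold change of 1.03 with SE 0.18), which held without TFEB-/- replicate 2 and was lost without any other single library (adjusted p = 0.0973 to 0.191). Its partner Cul7 was at 22, 18 and 17 CPM in WT and at 50, 28 and 38 CPM in TFEB-/-, with no overlap (log2 fold change 0.98, adjusted p = 0.102). Cul3, the scaffold that Kelch-like proteins bind, was at 85, 73 and 68 CPM in WT and at 45, 61 and 51 CPM in TFEB-/- (log2 fold change -0.53, adjusted p = 0.128). With median-ratio scaling both passed, Cul7 higher (adjusted p = 0.043, with 3.87% of all genes higher) and Cul3 lower (adjusted p = 0.0403, with 1.61% lower). Cul7 passed in 5 and Cul3 in 4 of 18 alternatives. Neither passed with quantile normalization or with any 1 library left out. Cul7 and Cul3 are named because of these values.

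**Figure D4:**
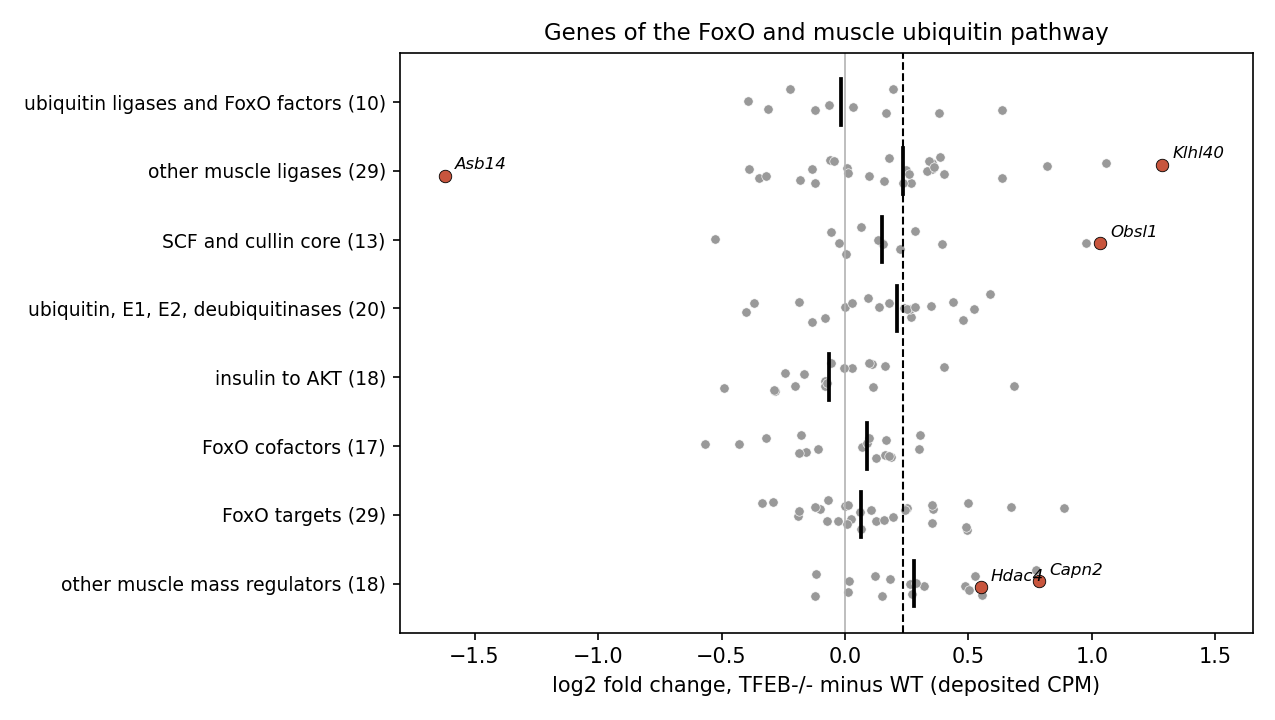
Log2 fold change on deposited CPM, TFEB-/- minus WT, of every tested gene in the 8 lists (number tested in brackets), with list medians as short bars and the median of all tested genes, 0.24, as a dashed line. Red points passed the threshold: Asb14 lower, and Klhl40, Obsl1, Hdac4 and Capn2 higher.

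In the lists upstream and downstream of the FoxO factors no gene was called in limma, where the share of called genes over the whole table was 4.44% and that with an unadjusted p below 0.05 was 23.3%. The 18 genes from the insulin receptor to AKT had a median log2 fold change of -0.064, against 0.24 for all genes, with 1 at an unadjusted p below 0.05. Of these, the kinase genes Akt1 and Akt2, which send FoxO proteins out of the nucleus, were at 150.3 ± 36.9 and 159 ± 66.6 CPM and at 170 ± 30.4 and 168 ± 21.4 CPM in WT and TFEB-/-, and their groups overlapped. The 17 tested cofactors and modifying enzymes of FoxO proteins had a median of 0.090, with 2 at an unadjusted p below 0.05. Their most abundant members were the 14-3-3 gene Ywhae, at 261 ± 34.0 and 278 ± 24.0 CPM, and the deacetylase Sirt2, at 82.7 ± 16.5 and 101 ± 10.4 CPM, both with overlap. With median-ratio scaling 1.61% of all genes were called lower. In this list 2 were, the kinase Mapk8 and the coactivator Ppargc1a, the latter at 29, 41 and 27 CPM in WT and 20, 21 and 23 CPM in TFEB-/- as deposited (adjusted p = 0.158, and 0.0457 with that scaling).

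Of 29 tested genes described as FoxO targets, the 10 left aside, 0 passed (4.44% of all genes), 4 had an unadjusted p below 0.05 in limma (23.3% of all genes), and the median log2 fold change was 0.066 (0.24 over all genes). The antioxidant enzyme gene Sod2 was at 410.3 ± 37.9 and 429 ± 27.6 CPM (log2 fold change 0.066, 95% interval -0.18 to 0.31), and the thioredoxin-binding protein gene Txnip at 560, 732 and 453 CPM in WT and 913, 427 and 788 CPM in TFEB-/-, with the lowest value of all in TFEB-/- replicate 2. Igfbp1 was listed at 0 throughout.

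Of 18 tested other regulators of muscle mass, 2 were higher and 0 lower, with a median of 0.28. The calpain Capn2, a calcium-dependent protease, rose from 42, 37 and 34 to 65, 63 and 67 CPM (adjusted p = 0.0188 at a log2 fold change of 0.78 with SE 0.091). It was also called with median-ratio scaling (adjusted p = 0.0191) and lost without WT replicate 2 or any 1 TFEB-/- library (adjusted p = 0.0579 to 0.115). Hdac4, a deacetylase described to act upstream of Trim63 and Fbxo32 in denervated muscle, rose from 17, 17 and 18 to 26, 23 and 28 CPM on the deposited scale (adjusted p = 0.0446 at a log2 fold change of 0.55 with SE 0.088), which did not hold with median-ratio scaling (0.32, adjusted p = 0.225) or without any single library other than TFEB-/- replicate 2 (adjusted p = 0.0945 to 0.157). Mstn, Fst, Myog and Acvr2b were listed at 0.

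Genes whose profile over the 6 libraries was nearest to that of Fbxo32 and of Trim63 were looked for among 4372 others with a mean of at least 20 CPM, by the root mean square difference of log2 values centred on each gene's mean. Nearest to Fbxo32 were the choline phosphotransferase Chpt1 (0.030), the splicing regulator Mbnl1 (0.035) and the nucleotidase Nt5c3 (0.039), against a median of 0.38 over the genes compared. Chpt1 was at 186, 188 and 179 CPM in WT and at 124, 169 and 168 CPM in TFEB-/-, with TFEB-/- replicate 1 lowest as for Fbxo32. Nearest to Trim63 were the membrane RING ligase March2 (0.059), the glutathione transferase relative Mgst3 (0.062) and the translation factor Eif1 (0.064), against a median of 0.29. None of these 6 genes passed the threshold (adjusted p = 0.2 to 0.515). The nearest of 4372 genes lie far below the median by the way they were picked, so the distances are only a description. A gene flat over the libraries would lie at 0.21 from Fbxo32 and 0.185 from Trim63.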

How the data were processed

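RNA of 6 cardiomyocyte libraries, 3 WT and 3 TFEB-/-, was sequenced from TruSeq Stranded mRNA libraries as pairs of 75 bases, per the labels. The deposited values are a score taken to be CPM from the name of the table, which also names kallisto: whole numbers that sum to 999505 to 999655 per library, scaled and rounded by the authors. The submitters' processing notes list build GRCm38 and, in no order, edgeR, DESeq2, StringTie, RSEM, Salmon, kallisto, HISAT2 and STAR, with no version or role, and any further scaling is not given in the sources used here. Names turned into dates (26) and missing names (303) were replaced through Ensembl IDs, and 67 repeated symbols were summed. Positions come from GENCODE M21. Genes reaching 1 CPM in 3 or more libraries entered limma 3.58.1 (R 4.3.3) on log2(CPM + 0.5), with a term for genotype alone and a mean-variance trend in eBayes, so fold changes of low genes are understated. Two-sided p-values were adjusted (Benjamini-Hochberg) over 12437 genes, with a threshold of 0.05, and 95% intervals are for single genes. Errors after ± are SD over 3 libraries. Single quantities were compared by exact permutation (scipy 1.17.1), adjusted over 5. The fit was also run on simulated data with independent noise and no shift common to all genes. These data have a median log2 fold change of 0.24, so that run does not cover the shift.

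Named genes were all 10 members, Tfeb, up to 3 higher and 3 lower called genes of each of 7 pathway lists or else its 2 most abundant genes, and the 3 genes nearest in profile to Fbxo32 and Trim63. Markers and genes named outside this rule (Cul3, Cul7, Mapk8, Ppargc1a, Rps27a, Foxo6 and genes listed at 0) were chosen after their values were seen. Results for some genes that this rule names are not reported here. The members and lists were chosen with earlier results of these data known. Alternatives were 2 pseudocounts, 2 filters, 3 scalings, no trend, robust hyperparameters, array weights, a replicate block and each library left out, with median-ratio scaling at a filter of 5 CPM added after seeing the data.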

Additional observations from a re-analysis of the deposited data

How the results depend on the processing

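None of the 10 genes passed the threshold on deposited CPM, and this held in 15 of 18 alternatives. The exceptions were array weights, with 2 higher (Trim54 and Foxo3), and quantile normalization and CPM without mitochondrial genes, with 1 lower each (Trim63). Leaving out any 1 library gave 0 called members. The count without overlap, 3 as deposited, was 5 with median-ratio scaling and 5 in CPM without mitochondrial genes, and with 1 library left out ran from 3 (without WT replicate 2, TFEB-/- replicate 1 or TFEB-/- replicate 2, where 30.5%, 25.4% and 37.8% of all genes did not overlap) to 6 (without WT replicate 1, against 40.2%), with 5 without WT replicate 3 (27.9%).

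The calls over all genes, 487 higher and 65 lower, were 481 and 200 with median-ratio scaling, 460 and 188 in CPM without mitochondrial genes, 397 and 172 with quantile normalization, 780 and 79 with robust hyperparameters and 2241 and 338 with array weights. At a filter of 5 CPM with median-ratio scaling, 220 were lower. Leaving out 1 library gave 154 (without TFEB-/- replicate 3) to 406 higher, with 196 without TFEB-/- replicate 1, 246 without WT replicate 3 and 255 without WT replicate 2, and 38 (without WT replicate 1) to 87 lower. Of the genes in the other pathway lists, 4 were higher and 1 lower as deposited. With no filter 2 were higher, with array weights 19 higher and 6 lower, with median-ratio scaling 5 lower, or 7 lower at a filter of 5 CPM, in CPM without mitochondrial genes 4 lower and with quantile normalization 3 lower. Leaving out 1 library gave 0 to 4 higher and 1 to 2 lower.

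The summed MuRF difference of 107 CPM became 6.36 with median-ratio scaling and 17.7 in CPM without mitochondrial genes, and the FoxO sum turned from 14.0 to -5.10 and -6.16. With 1 library left out they ran from 73.5 to 150.5 and from 7.33 to 20.3 CPM. Some signs turned. The log2 fold change of Trim55 was -0.074 with median-ratio scaling at either filter, -0.060 in CPM without mitochondrial genes and -0.095 with quantile normalization, and ran from -0.034 (without WT replicate 3) to 0.32 with 1 library left out, with -0.0089 without TFEB-/- replicate 1. That of Fbxo40 was -0.21, -0.19 and -0.19 with these scalings and ran from -0.087 (without WT replicate 3) to 0.17, with -0.020 without TFEB-/- replicate 1. That of Foxo1 was -0.031, -0.019 and -0.044 with these scalings. With 1 library left out that of Fbxo30 ran from -0.26 to 0.075 (without WT replicate 1) and that of Foxo4 from -0.20 to 0.030 (without WT replicate 2). On deposited CPM the log2 fold changes of Trim55, Fbxo40 and Foxo1 were positive but below the median of all genes, 0.24. The 3 scalings bring that median down, and the signs of these genes turned with it. What underlies the shift of all genes, and the turns with a library left out, was not tested.

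Whether the replicate numbers pair the libraries was not settled. Deviations from the group means correlated at 0.14, -0.049 and 0.088 for the 3 shared numbers, and at -0.18 to 0.10 for unlike numbers. With 3 libraries in each group such correlations cannot decide it. With the replicate block 159 genes were higher and 26 lower, 0 members passed, and 0 genes of the other lists were higher. Read depth is not known, so what it limits cannot be given. Rounding limits Foxo1, Fbxo30 and Klhl38 most.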

Other observations

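Rps27a, which encodes ubiquitin joined to a ribosomal protein, was at 129, 141 and 97 CPM in WT and at 176, 156 and 160 CPM in TFEB-/-, with no overlap and without passing the threshold (limma adjusted p = 0.195). The polyubiquitin gene Ubb was at 599, 645 and 525 CPM in WT and at 919, 699 and 934 CPM in TFEB-/- (log2 fold change 0.52, adjusted p = 0.136), and with median-ratio scaling its log2 fold change was 0.28. In all, 0 of 20 genes of ubiquitin, its activating and conjugating enzymes and deubiquitinases passed (4.44% of all genes), 7 had an unadjusted p below 0.05 in limma (23.3% of all genes), and their median log2 fold change was 0.21 (0.24 over all genes). Foxo6, the FoxO gene best known from brain, was at 4, 4 and 2 CPM in WT and at 7, 3 and 2 CPM in TFEB-/-.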
